A study of Saccharomyces cerevisiae BY4741 with 4 samples.

Results

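The 10 histone genes of budding yeast were examined among the 7382 features of a read count table from wild-type Saccharomyces cerevisiae BY4741, a haploid laboratory strain with auxotrophy mutations in HIS3, LEU2, MET15 and URA3. They were taken by their systematic names: HTA1 (YDR225W) and HTA2 (YBL003C) for H2A, HTB1 (YDR224C) and HTB2 (YBL002W) for H2B, HHT1 (YBR010W) and HHT2 (YNL031C) for H3, HHF1 (YBR009C) and HHF2 (YNL030W) for H4, HHO1 (YPL127C) for the linker histone and HTZ1 (YOL012C) for the H2A variant. Poly(A) RNA, captured on oligo-dT beads and then cleared of residual rRNA, was sequenced in 2 libraries, and total RNA in 2 libraries. Both kinds of RNA came from cultures in YPD medium at 30 °C, harvested during exponential growth at an OD600 of 0.6. The labels call the libraries of a fraction biological replicates and do not say whether equal replicate numbers share a culture.

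Core histones H2A, H2B, H3 and H4 form the nucleosome, around which DNA is wrapped, and in yeast each is encoded by a pair of genes. These genes lie in divergent pairs, H2A beside H2B and H3 beside H4, that share an upstream region, and they are transcribed mainly in S phase, when new chromatin is assembled. HTZ1 encodes the variant H2A.Z, which the SWR1 complex places in nucleosomes near promoters and which is made outside S phase as well. HHO1 encodes the linker histone H1. Unlike the replication-dependent histone mRNAs of animals, which end in a stem-loop, yeast histone mRNAs carry poly(A) tails, so they can be caught on oligo-dT. In an asynchronous culture, a smaller share of cells in S phase and less histone mRNA per cell cannot be told apart.

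The shared upstream regions are shown because they are what the divergent pairs have in common. In genome build R64, the distance between the coding sequences was 817 bases for HTA1 and HTB1 on chromosome IV (914713 to 915529), 699 for HTA2 and HTB2 on chromosome II (235793 to 236491), 646 for HHT1 and HHF1 on chromosome II (255685 to 256330) and 676 for HHT2 and HHF2 on chromosome XIV (576051 to 576726). The stretch of 200 bases around the matches to the histone upstream activating sequence is printed for each pair, 5′ to 3′ on the + strand. Capitals mark matches on either strand to a short form of the element, GNGAA followed after 7 bases by GAAC. The element is known to be bound by the activator Spt10. A longer form, GCGAAAAA followed after 4 bases by GAAC, was also searched, and every match to it is a match to the short form.

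HTA1 and HTB1 (chrIV:914943-915142, + strand): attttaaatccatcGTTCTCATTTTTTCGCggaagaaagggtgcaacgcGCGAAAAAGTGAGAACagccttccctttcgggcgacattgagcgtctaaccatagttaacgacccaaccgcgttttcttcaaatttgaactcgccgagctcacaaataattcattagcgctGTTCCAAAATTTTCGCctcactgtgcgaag
HTA2 and HTB2 (chrII:236034-236233, + strand): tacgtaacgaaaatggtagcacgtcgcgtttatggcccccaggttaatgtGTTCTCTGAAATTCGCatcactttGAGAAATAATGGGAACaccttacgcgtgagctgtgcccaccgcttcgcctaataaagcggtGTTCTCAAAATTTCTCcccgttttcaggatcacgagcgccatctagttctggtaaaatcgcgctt
HHT1 and HHF1 (chrII:255918-256117, + strand): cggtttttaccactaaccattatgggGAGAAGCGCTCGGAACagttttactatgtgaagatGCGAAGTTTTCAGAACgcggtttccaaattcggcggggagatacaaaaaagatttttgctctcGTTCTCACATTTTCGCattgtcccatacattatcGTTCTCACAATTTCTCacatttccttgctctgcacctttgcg
HHT2 and HHF2 (chrXIV:576297-576496, + strand): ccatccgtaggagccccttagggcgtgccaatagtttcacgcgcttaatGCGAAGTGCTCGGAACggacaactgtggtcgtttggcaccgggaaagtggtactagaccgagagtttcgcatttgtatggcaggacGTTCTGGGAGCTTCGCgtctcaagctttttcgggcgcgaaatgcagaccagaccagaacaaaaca

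The region of HTA1 and HTB1 held 3 matches, of which 2 had the longer form, GCGAAAAAATGAGAAC on the − strand and GCGAAAAAGTGAGAAC on the + strand. The other regions held 3, 4 and 2 matches in the order printed, and 0 of these had the longer form. Within the 500 bases before the coding start, all 8 core genes had at least 1 match to the short form and HHO1 and HTZ1 had 0. Of 6000 nuclear coding genes of the reference, 131 (2.18%) had a match to the short form in such a window and 7 (0.117%) to the longer form, among them HTB1. The short form was chosen after the histone regions had been searched, so these counts are a description of letters and not evidence of binding.

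**Figure D1:**
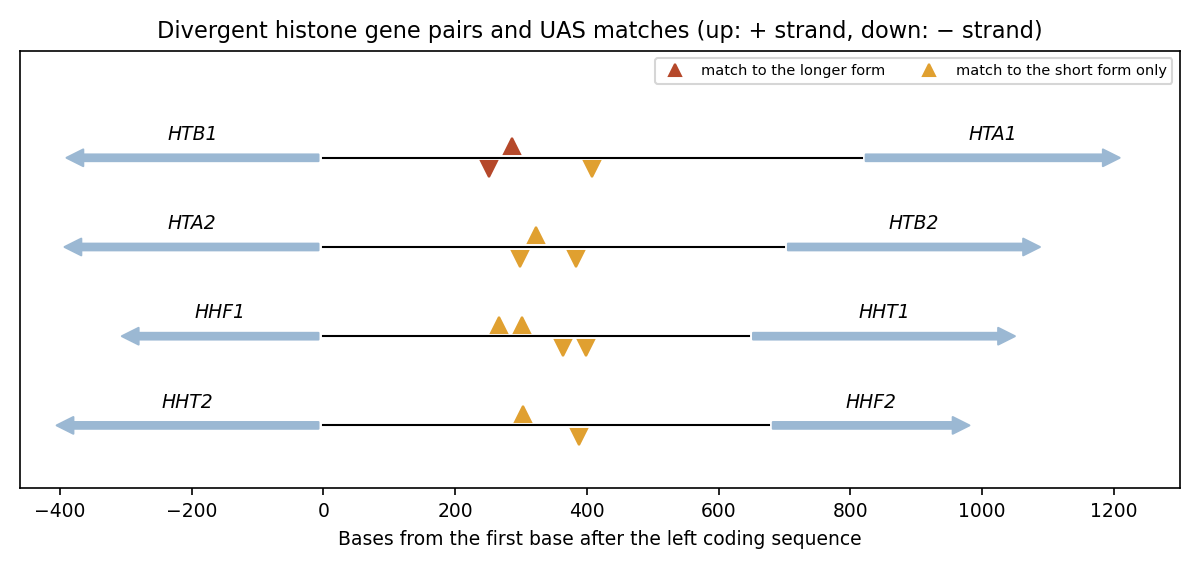
Map of the 4 divergent histone gene pairs, with the distance in bases from the first base after the left coding sequence on the horizontal axis. Arrows are coding sequences drawn in the direction of transcription, and triangles are matches to the upstream activating sequence (UAS) on the + strand (above the line) or − strand (below it). The matches lie away from both coding sequences, and the 2 longer matches are both between HTB1 and HTA1.

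How far reads can be told apart between the copies of a family depends on their coding sequences. HTB1 and HTB2 differed at 48 of 396 bases, HHT1 and HHT2 at 28 of 411, HTA1 and HTA2 at 25 of 399, and HHF1 and HHF2 at 8 of 312. The reads were 50 bases long. No stretch of 50 bases of HTB1, HTB2, HHO1 or HTZ1 occurred elsewhere in the genome. Of the 50-base stretches, 4.57% of those of HTA1 and of HTA2, 12.1% of those of HHT1 and of HHT2, and 21.3% of those of HHF1 and of HHF2 occurred elsewhere, so some reads of these 6 genes could have been counted for either copy. HTZ1 was identical to HTA1 at 257 of 384 aligned bases. The 100 coding bases with the most differences are printed for the most and the least diverged pair, read in the direction of the gene, with the differing bases in capitals.

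HTB1 (chrIV:914611-914710, − strand): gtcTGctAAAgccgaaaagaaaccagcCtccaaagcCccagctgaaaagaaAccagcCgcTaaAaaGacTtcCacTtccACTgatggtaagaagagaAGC
HTB2 (chrII:236494-236593, + strand): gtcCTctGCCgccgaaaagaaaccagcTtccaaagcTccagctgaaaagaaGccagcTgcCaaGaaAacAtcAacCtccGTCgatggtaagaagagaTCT
HHF1 (chrII:255463-255562, − strand): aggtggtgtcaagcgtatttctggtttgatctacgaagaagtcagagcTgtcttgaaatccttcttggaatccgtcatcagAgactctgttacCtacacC
HHF2 (chrXIV:576849-576948, + strand): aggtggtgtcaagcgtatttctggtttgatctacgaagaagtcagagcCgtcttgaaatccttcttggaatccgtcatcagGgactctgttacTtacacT

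The H2B stretch spans coding bases 3 to 102 and holds 21 differences. The H4 stretch spans coding bases 123 to 222 and holds 4.

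The poly(A) libraries held 52851542 and 53180654 counts, of which 99.8% fell on nuclear protein-coding features, and the total RNA libraries 53746838 and 75955489, of which 3.14% and 3.15% did. The histone genes together had 272562 and 288373 counts in poly(A) RNA and 4957 and 6735 in total RNA. The fewest counts of a histone gene in a library were 2812 in poly(A) RNA and 73 in total RNA, both for HTZ1. The a-cell marker genes, which fit the mating type of BY4741, summed to 121306 and 134152 counts in poly(A) RNA and 3465 and 4982 in total RNA. The 4 alpha-cell markers summed to 1716 and 1775 counts in poly(A) RNA and 80 and 128 in total RNA, of which SAG1 carried 1287 and 1309 in poly(A) RNA and 70 and 117 in total RNA. Of the alpha-factor genes, MF(ALPHA)1 had 31 and 37 counts in poly(A) RNA and 5 and 1 in total RNA, and MF(ALPHA)2 had 96 and 103 in poly(A) RNA and 0 and 4 in total RNA. No joined feature, which holds reads where annotated genes overlap, contained a histone gene.

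Histone transcripts made up a larger share of coding counts in poly(A) RNA than in total RNA. The share was 0.517% and 0.543% in the poly(A) libraries (Wilson 95% intervals 0.515 to 0.519 and 0.542 to 0.545) and 0.293% and 0.282% in the total RNA libraries (0.285 to 0.302 and 0.275 to 0.289). The means were 0.53% ± 0.0188 in poly(A) RNA and 0.288% ± 0.00818 in total RNA (SD, n = 2 each), a ratio of 1.84. With counts scaled to the coding sum, the typical feature was higher in poly(A) RNA as well. The median log2 fold change, poly(A) over total RNA, was then 0.36 over all features and 0.95 over the histone genes. The exact two-sided permutation p was 0.333, which is the smallest that 2 against 2 libraries allow. Intervals cover counting error only and not the spread between libraries. They may be too narrow even for counting error, because reads from PCR without molecular identifiers are not independent molecules.

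The first question was how the members rank in abundance, with levels as TMM-normalised CPM, counts scaled to library size, per kb of coding length. TMM scales each library to a common effective size, so that the typical feature has the same level in both fractions. HHT2, encoding H3, was highest in both fractions, at 507 and 557 CPM per kb in poly(A) RNA and 375 and 384 in total RNA. In poly(A) RNA it was followed by the H4 genes HHF2 (358 ± 1.42, SD, n = 2) and HHF1 (329 ± 2.44), then by the H2B gene HTB2 (298 ± 1.81) and the H2A gene HTA1 (295 ± 9.20), whose libraries overlapped. The levels depend on the length used. Per kb of the 50-base starts found once in the genome, HHF1 and HHF2 stood at 496 and 539 in poly(A) RNA and at 245 and 315 in total RNA. On that measure HHT2 stood at 687 in poly(A) RNA and 491 in total RNA, HTB2 at 340 and 347, and HTA1 at 353 and 156. It divides all counts of a gene by those starts, so it is apt only if reads of shared stretches were left uncounted. Whether they were is not given, and if they were counted, the levels of genes with shared stretches, the H4 genes most, are too high on that measure. Per kb of coding length, HHT1 (174 ± 5.09), HTB1 (117 ± 4.93) and HTA2 (79.3 ± 4.53) were the lowest core genes in poly(A) RNA. HTZ1 (21.0 ± 0.0822) and HHO1 (17.9 ± 0.137) came last.

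The order in total RNA differed for the H2B genes. HTB2 stood second there at 298 and 309 CPM per kb, above HHF2 (209 ± 9.28), HHF1 (162 ± 1.21) and HTA1 (131 ± 9.97). HTB1 had 124 and 89.6 CPM per kb, and its libraries overlapped with those of its neighbours in the order, HTA1 and HHT1 (95.7 ± 7.36). HTA2 (45.8 ± 4.85), HTZ1 (24.4 ± 5.28) and HHO1 (19.3 ± 0.702) were lowest in that order. All neighbours not named here as overlapping had library ranges that stayed apart. HHT2 exceeded HTA2, the lowest core gene, 6.71-fold in poly(A) RNA and 8.29-fold in total RNA. Among 5148 nuclear coding genes with at least 1 normalised CPM in every library, HHT2 ranked 47 in poly(A) RNA and 53 in total RNA, HTB2 113 and 75, HHO1 1425 and 1267, and HTZ1 1240 and 1009.

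**Figure D2:**
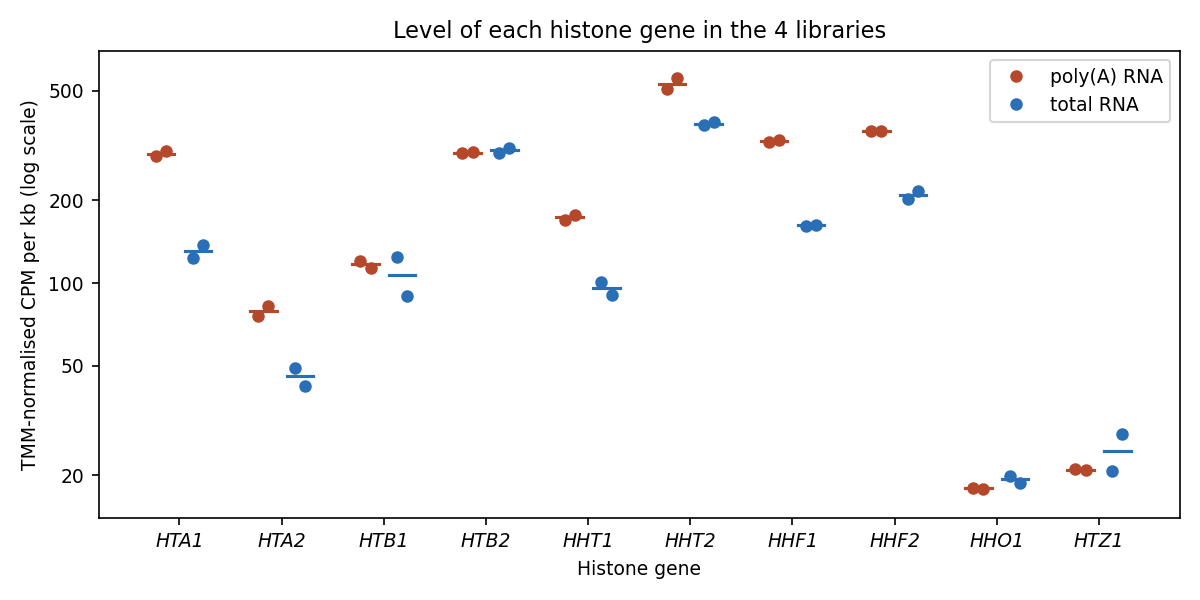
Level of each histone gene in TMM-normalised CPM per kb on a log axis; points are libraries, poly(A) RNA to the left and total RNA to the right, and lines are means. HTB1, HTB2, HHO1 and HTZ1 lie at similar levels in both fractions, whereas the H2A, H3 and H4 genes lie higher in poly(A) RNA.

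The next question was whether each histone transcript kept its place among the transcripts that the beads retain. Of the 10 genes, 6 were higher in poly(A) RNA and 0 lower in edgeR's quasi-likelihood test at a Benjamini-Hochberg adjusted p under 0.05 over 6945 features, of which 31.0% were higher and 31.2% lower. At an unadjusted p under 0.05 the counts were also 6 and 0, as they were with DESeq2 at its adjusted p. All 6 were H2A, H3 or H4 genes. The median log2 fold change of the 10 was 0.63, against 0.044 over all features tested. The trend of all coding features at the coding lengths of these genes was itself between 0.50 and 0.63. With that trend removed, the median of the 10 was 0.0053, against 0.017 over all features of that fit. Fold changes are given on the log2 scale, poly(A) over total RNA, with SE.

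H2A genes were higher, with HTA1 furthest from 0 of the 10. HTA1 had 115 and 120.4 normalised CPM in poly(A) RNA and 49.4 and 55.0 in total RNA, which is 1.17 on the log2 scale (SE 0.08, adjusted p = 7.7e-11). HTA2 had 30.4 and 32.9 normalised CPM in poly(A) RNA and 19.6 and 16.9 in total RNA, which is 0.80 (SE 0.11, adjusted p = 9.7e-07). Both genes were higher in each poly(A) library than in either total RNA library, though how many of all features share this was not counted. The copies encode nearly identical proteins, which pair with H2B in the nucleosome.

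H4 and H3 genes were also higher. HHF1 had 102 and 103 normalised CPM in poly(A) RNA and 50.4 and 50.9 in total RNA, which is 1.02 (SE 0.08, adjusted p = 4.2e-10). HHF2 had 111 and 112 normalised CPM in poly(A) RNA and 63.2 and 67.3 in total RNA, which is 0.77 (SE 0.08, adjusted p = 2.62e-08). H4 and H3 form the tetramer at the core of the nucleosome, and the copies of each encode the same protein. HHT1 had 70.0 and 73.0 normalised CPM in poly(A) RNA and 41.5 and 37.2 in total RNA, which is 0.87 (SE 0.09, adjusted p = 1.93e-08). HHT2 had 208 and 229 normalised CPM in poly(A) RNA and 154 and 158 in total RNA, which is 0.49 (SE 0.08, adjusted p = 1.09e-05), the smallest of the 6. The fractions did not overlap for any of these 4 genes, but how many of all features share this was not counted. In the same test 31.0% of all features were higher and 31.2% lower.

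H2B genes did not pass the test. HTB1 had 47.7 and 44.9 normalised CPM in poly(A) RNA and 49.2 and 35.5 in total RNA, a log2 fold change of 0.14 (95% interval -0.068 to 0.36, adjusted p = 0.26 in edgeR). The total RNA libraries of HTB1 lay on either side of its poly(A) libraries. Without total RNA replicate 1 the value for HTB1 was 0.39 and passed (adjusted p = 0.0015), and without total RNA replicate 2 it was -0.081 (adjusted p = 0.557). HTB2 had 117 and 119 normalised CPM in poly(A) RNA and 118 and 122 in total RNA, a log2 fold change of -0.028 (interval -0.18 to 0.12, adjusted p = 0.769). For HTB2 the fractions overlapped, and its interval lay below that of every H2A, H3 and H4 gene.

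The linker and variant genes did not pass either. HHO1 had 14.0 and 13.8 normalised CPM in poly(A) RNA and 15.4 and 14.6 in total RNA, a log2 fold change of -0.10 (interval -0.32 to 0.11, adjusted p = 0.419 in edgeR). HTZ1 had 8.51 and 8.46 normalised CPM in poly(A) RNA and 8.38 and 11.4 in total RNA, from 73 and 135 counts, a log2 fold change of -0.25 (interval -0.51 to 0.016, adjusted p = 0.117 in edgeR). Both poly(A) libraries of HHO1 lay below its total RNA libraries, whereas those of HTZ1 lay between its total RNA libraries. The HTZ1 value rested on total RNA replicate 2, since without it the log2 fold change was 0.023 and without replicate 1 it was -0.42 (adjusted p = 0.0126).

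**Figure D3:**
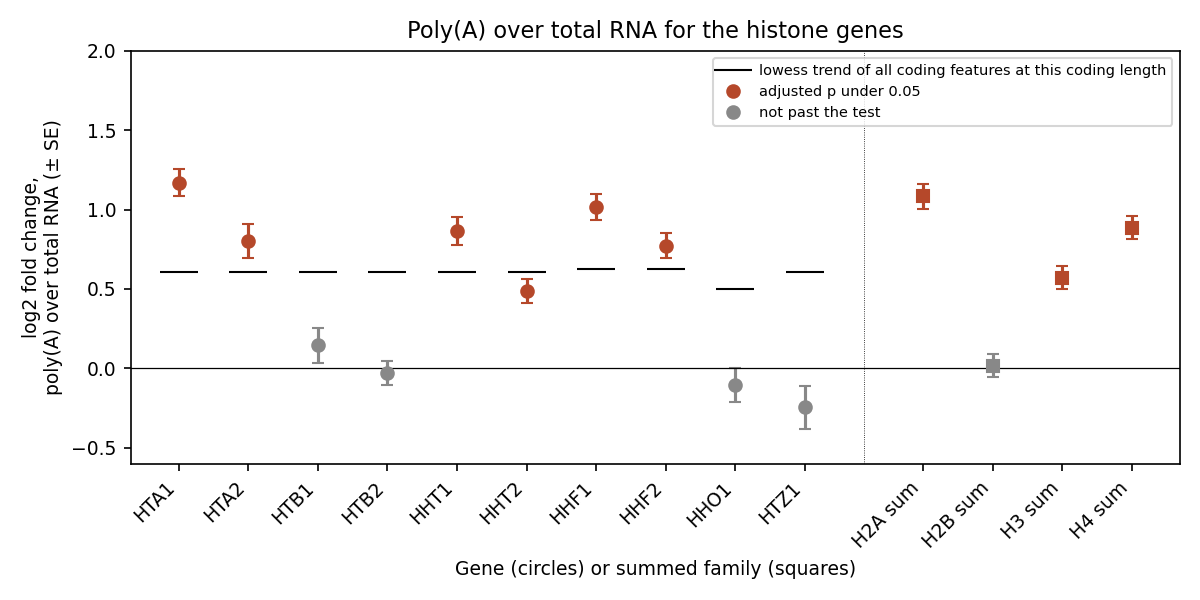
Log2 fold change, poly(A) over total RNA, with SE, for the 10 histone genes (circles) and the 4 families with copies summed (squares). Black dashes give the trend of all nuclear coding features at the same coding length, between 0.50 and 0.63. The H2A and H4 genes and HHT1 lie above it, and the H2B genes, HHT2, HHO1 and HTZ1 below it. With the trend removed, HTA2, HHT2 and HHF2 did not pass the test.

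Summing the copies removes the uncertainty of which copy a shared read was counted for, but not the loss of such reads if they were left out of the counting. H2A had 146 and 153 normalised CPM in poly(A) RNA and 69.0 and 71.8 in total RNA, a log2 fold change equal to 1.08 (SE 0.08, adjusted p = 9.7e-11 in edgeR). H4 had 213 and 215 in poly(A) RNA and 114 and 118 in total RNA, 0.89 (SE 0.07, adjusted p = 1.06e-09). H3 had 279 and 302 in poly(A) RNA and 196 and 195 in total RNA, 0.57 (SE 0.07, adjusted p = 8.43e-07). H2B had 165 and 164 in poly(A) RNA and 167 and 158 in total RNA, 0.018 (SE 0.07, adjusted p = 0.853). Thus 3 of 4 families were higher in this fit, in which 31.0% of 6941 rows were higher, and the H2B libraries of the fractions overlapped.

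Coding length moved with these values. Short coding features were on the whole higher in poly(A) RNA, with a trend of 0.61 at the lengths of the H2A, H2B and H3 genes (396 to 411 bases), 0.63 at that of the H4 genes and 0.50 at that of HHO1 (777 bases). With this trend removed, HTA1, HHT1 and HHF1 were higher by 0.55, 0.25 and 0.38, HTB1, HTB2, HHO1 and HTZ1 were lower, at -0.47, -0.64, -0.61 and -0.86, and HTA2, HHT2 and HHF2 did not pass, at 0.19, -0.13 and 0.14. The median of the 10 genes was then 0.0053, against 0.017 over all features of that fit. Summed H2A and summed H2B, whose genes have almost equal coding lengths, had 0.47 and -0.60. The trend was fitted on coding length in these same data, and the part of length in the results was not tested.

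**Figure D4:**
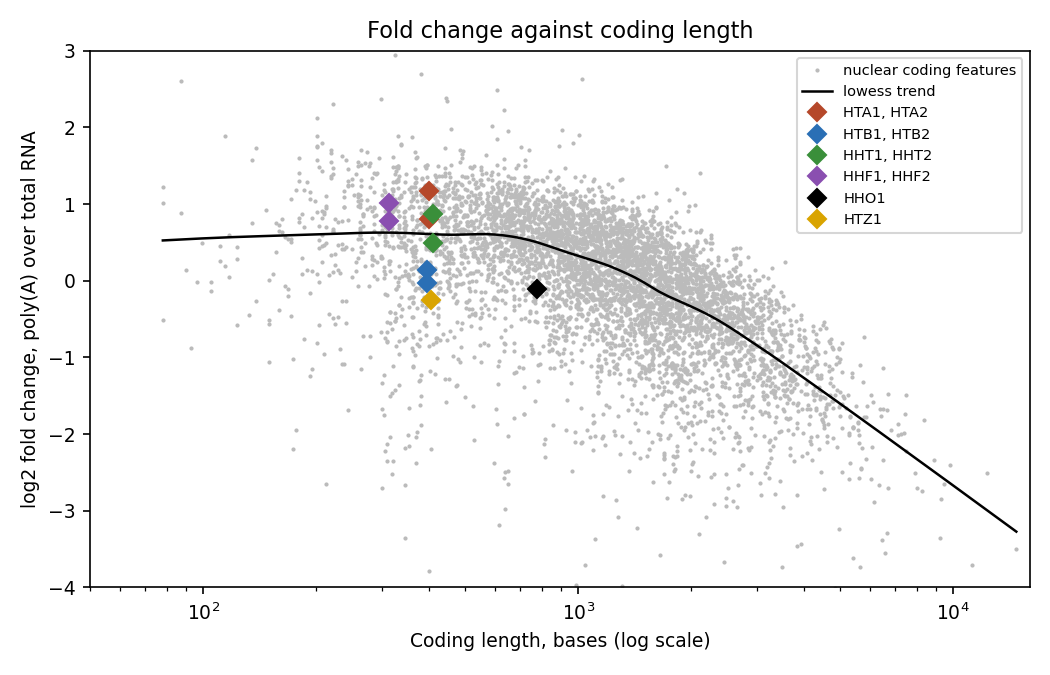
Log2 fold change, poly(A) over total RNA, against coding length on a log axis for 5772 nuclear coding features (grey, of which 49 fall outside the plotted range) with their lowess trend (line) and the histone genes (diamonds). The genes of 396 to 411 bases spread from HTA1 at 1.17 to HTZ1 at -0.25.

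Ratios within the histone genes do not depend on how the fractions are scaled, so 13 of them were compared between fractions. In 12 of the 13 the fractions did not overlap, and for each of these the exact two-sided permutation p was 0.333 (0.361 adjusted over the 13). No smaller p is possible with 2 against 2 libraries, and the ratios share genes. How many ratios of other gene pairs keep the fractions apart was not counted. Differences between the fractions were common, with 31.0% of all features called higher and 31.2% called lower. The count of 12 is therefore not shown to be particular to histone genes. Values below are ratios of counts per kb.

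H2A against H2B had the largest difference among the sums of families. The ratio was 0.874 and 0.931 in poly(A) RNA and 0.409 and 0.452 in total RNA, a difference of 1.07 on the log2 scale, or 2.10-fold. The difference was present at both loci. HTA1 over HTB1 was 2.40 and 2.66 in poly(A) RNA and 0.997 and 1.54 in total RNA, a log2 difference of 1.03. HTA2 over HTB2 was 0.256 and 0.276 in poly(A) RNA and 0.165 and 0.137 in total RNA, a log2 difference of 0.82. Each H2A gene therefore had a higher ratio to its divergent H2B neighbour in poly(A) RNA, although in poly(A) RNA HTA1 was the more abundant gene of its locus and HTA2 the less abundant of its own.

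H3 against H4 differed the other way and by less. The ratio of the sums was 0.991 and 1.07 in poly(A) RNA and 1.31 and 1.25 in total RNA, a log2 difference of -0.32. HHT1 over HHF1 was 0.521 and 0.537 in poly(A) RNA and 0.624 and 0.554 in total RNA, a log2 difference of -0.15, which was -0.067 without total RNA replicate 1 and -0.24 without replicate 2. HHT2 over HHF2 was 1.42 and 1.55 in poly(A) RNA and 1.85 and 1.78 in total RNA, a log2 difference of -0.29. The sum of H2A and H2B over that of H3 and H4 was 0.575 and 0.557 in poly(A) RNA and 0.695 and 0.667 in total RNA, a log2 difference of -0.27.

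**Figure D5:**
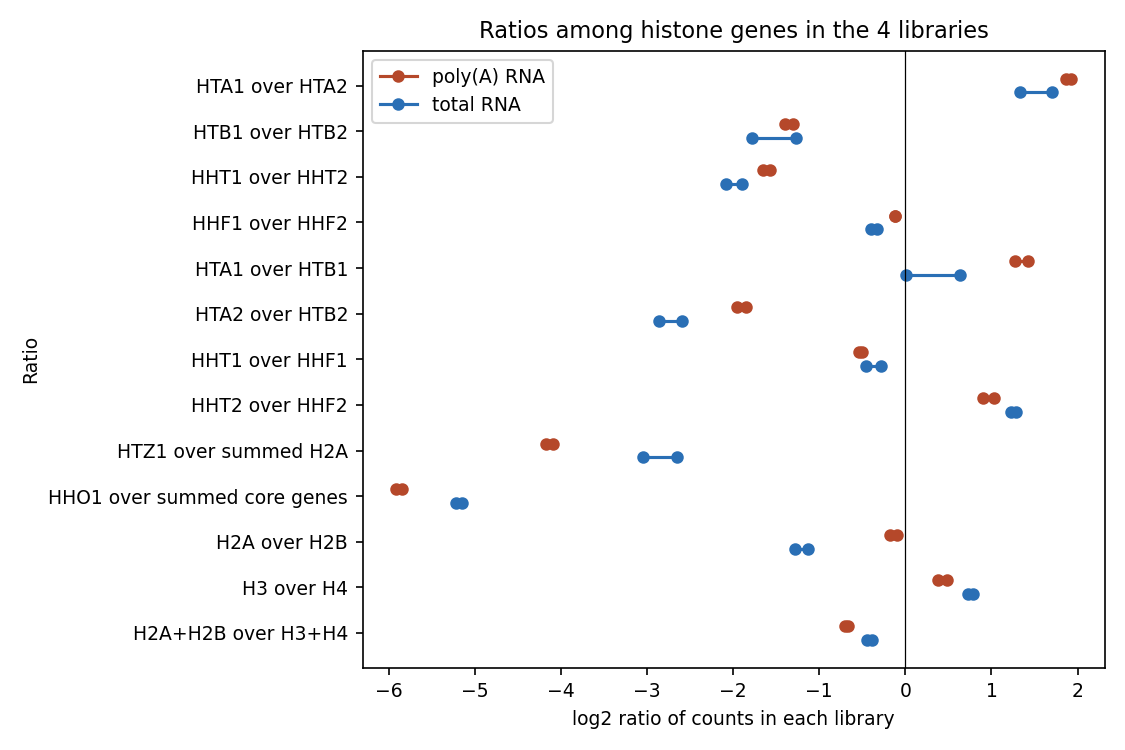
Log2 ratio of counts for 13 pairs or sums of histone genes; joined points are the libraries of a fraction, poly(A) RNA above and total RNA below. The fractions overlap for HTB1 over HTB2 alone, and wide gaps are seen for HTZ1 over summed H2A and for H2A over H2B.

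In both fractions HTA1, HTB2 and HHT2 held most of the counts of their families, while the H4 copies were closer to even. HTA1 held 79.1% and 78.5% of H2A counts in poly(A) RNA and 71.5% and 76.5% in total RNA (Wilson 95% intervals 67.8 to 75.0 and 73.5 to 79.2 in total RNA). HHT1 held 25.1% and 24.2% of H3 counts in poly(A) RNA and 21.2% and 19.1% in total RNA (19.3 to 23.2 and 17.5 to 20.7). HHF1 held 47.8% and 47.9% of H4 counts in poly(A) RNA and 44.4% and 43.1% in total RNA (41.3 to 47.5 and 40.5 to 45.7). HTB1 held 28.9% and 27.5% of H2B counts in poly(A) RNA and 29.4% and 22.5% in total RNA (27.1 to 31.8 and 20.7 to 24.4). The copy 1 share was higher in poly(A) RNA for H2A, H3 and H4, with log2 ratio differences of 0.38, 0.38 and 0.24. The H2A value was 0.20 without total RNA replicate 1 and 0.57 without replicate 2. The interval of HTA1 in total RNA replicate 2, 73.5 to 79.2, held both of its poly(A) shares. For H2B the Wilson intervals of the total RNA libraries did not overlap, and the shares in these libraries enclosed the poly(A) values. The H2B difference of 0.18 turned to -0.084 without total RNA replicate 2.

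In poly(A) RNA the replication-independent variant stood lower relative to H2A, and the linker histone lower relative to the summed core genes. HTZ1 over summed H2A was 0.0576 and 0.0544 in poly(A) RNA and 0.120 and 0.156 in total RNA, a log2 difference of -1.29. The value rested in part on HTZ1 in total RNA replicate 2, without which it was -1.10, smaller in size than the 1.34 of HTA1 over HTB1 and the 1.14 of H2A over H2B. HHO1 over the summed core genes was 0.00852 and 0.00811 in poly(A) RNA and 0.0138 and 0.0131 in total RNA, a log2 difference of -0.69. Relative to the typical feature, HTZ1 and HHO1 did not pass the test, as given above.

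Genes that act on histones were described from lists and gave no common direction. Their counts are set beside the 31.0% of all features that were higher and the 31.2% that were lower. Of 17 regulators of histone gene transcription and mRNA turnover, 1 was higher and 7 lower in poly(A) RNA, with a median log2 fold change of -0.32. Lowest were HIR2 at -1.63 and HIR3 at -1.05, subunits of the HIR corepressor of histone genes, SWI4, the DNA-binding subunit of the SBF activator, at -1.33, and the chaperone ASF1 at -1.14. Of 16 histone chaperones, acetyltransferases and importers, 7 were higher and 3 lower (median 0.20). SPT6 and SPT16, which reassemble nucleosomes behind RNA polymerase, had -1.27 and -1.02, whereas SPN1, a partner of Spt6, and CHZ1, a chaperone of H2A.Z, had 0.93 and 0.89.

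Of 14 subunits of the SWR1 complex, 6 were higher and 3 lower (median 0.24), where 31.0% of all features were higher and 31.2% lower. VPS71 and YAF9 had 1.44 and 1.18, and the catalytic subunit SWR1 -0.92. ACT1, which encodes actin and is also a subunit of that complex, had -1.45. Of 14 DNA replication genes of S phase, 4 were higher and 5 lower (median 0.14), with RNR1, the large subunit of ribonucleotide reductase, at -2.11, POL2, a DNA polymerase catalytic subunit, at -1.68, PRI1, a primase subunit, at 1.10 and RAD27, a flap endonuclease, at 0.81. CSE4, the H3 variant of centromeres, had 2152 and 2454 counts in poly(A) RNA and 27 and 40 in total RNA, a log2 fold change equal to 1.08 (SE 0.18, adjusted p = 1.6e-05 in edgeR). These named genes were past the test, and they differ widely in coding length, from 462 bases for CHZ1 to 6669 for POL2.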

How the data were processed

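The submitters' processing notes name Bowtie2 2.3.4.3, cutadapt 1.18, FastQC 0.11.8 and build R64, with no roles. How reads were counted, whether strand was used and how reads with several matches were handled are not given in the sources used here. The deposited table holds raw read counts per annotated feature, per the file headers, and reads of antisense transcripts cannot be told apart. All sample columns were matched.

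Counts were tested with edgeR 4.0.16 in R 4.3.3 (filterByExpr, TMM, quasi-likelihood F test, Benjamini-Hochberg adjustment at 0.05) on the whole table. The SE is the size of the log2 fold change divided by the square root of F. A simulation of poly(A) against total RNA used 7004 coding features without rRNA and the same profile for both fractions, apart from 200 changed features. The changed features were chosen among those above a floor of expected counts. In it, 97% of 2-fold changes and 81% of 1.5-fold changes were called, as were 0.123% of unchanged features. The real fractions differ in many more features, so these rates need not hold for them. The p-values of edgeR rest on the spread between 2 libraries a fraction, with the spread of each feature drawn toward that of the other features tested. They do not measure the spread of 1 gene alone. Replicate pairs differed by more than sampling noise (chi-square over degrees of freedom 27.7 and 4.00). Levels use coding lengths and sequences from the RefSeq reference of build R64, read with Biopython 1.88; ratios used scipy 1.17.1 and Python 3.11.15. Alternatives were DESeq2 1.42.0 (Wald test, and its size factors in edgeR), library totals, scaling to the coding sum, other filters, coding features alone, each library left out, a replicate block and removal of the length trend (lowess, span 0.3).

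All 10 members are named; of each pathway list up to 4 genes with the largest absolute log2 fold change, and the 3 features nearest to HHT2, HHO1 and HTZ1 in log2 CPM per kb over the 4 libraries. Members, lists and tests were chosen with earlier results of these data known.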

Additional observations from a re-analysis of the deposited data

How the results depend on the processing

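The log2 fold changes of HTA1, HHT1, HHF1 and of summed H2A and H4 kept their direction and their call under every alternative run, those of HTA2, HHT2 and HHF2 and of summed H3 under all but the removal of the length trend, and the count of genes higher was 6 or 7 when a library was left out. Scaling shifted all values together: the median of all features was 5.34 with library totals and 0.36 with scaling to the coding sum, against 0.044. With library totals all 10 genes were higher, with a median of 5.94, and HTB1, HTB2, HHO1, HTZ1 and summed H2B had 5.45, 5.28, 5.20, 5.07 and 5.32. With scaling to the coding sum 8 genes were higher, with a median of 0.95, and the same items had 0.46, 0.29, 0.22, 0.079 and 0.34, of which HHO1 and HTZ1 did not pass. The median of the histone genes exceeded that of all features by 0.59 in the main scaling, 0.60 with library totals and 0.59 with the coding sum. With the length trend removed 3 genes were higher, 4 were lower and the median was 0.0053. HTA2 (0.19) and HHF2 (0.14) lost their call, HHT2 (-0.13) and summed H3 (-0.043) turned without a call, HTB1 (-0.47) and summed H2B (-0.60) turned and passed, and HTB2 (-0.64), HHO1 (-0.61) and HTZ1 (-0.86) passed. Summed H2B, near 0, had -0.0074 with DESeq2 size factors, -0.0011 in the DESeq2 test and -0.038 with at least 10 CPM in 2 libraries, none past the test. Leaving out 1 library at a time gave 0.59 to 0.71 for the median, 0 or 1 gene lower, and ranges of -0.081 to 0.39 for HTB1, -0.046 to 0.019 for HTB2, -0.42 to 0.023 for HTZ1, -0.021 to 0.065 for summed H2B and -0.084 to 0.44 for HTB1 over HTB2. With a replicate block 6 genes were higher, 0 were lower, the median was 0.63 and no call changed; the deviations of same-numbered libraries correlated at 0.222 over coding features, with only 2 pairs. Per 50-base start found once in the genome, every level rose, because a gene has fewer such starts than coding bases. Used in place of coding length, this measure moved 18 of the 20 levels by more than the spread between replicates. On it HHT2 exceeded HTA2 7.26-fold in poly(A) RNA. The causes of the other changes were not tested. Counts of 73 to 1869 in total RNA, and the spread between its libraries, limit the precision of the fold changes.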

Other observations

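The coding features nearest to 3 histone genes in log2 level per kb over the 4 libraries, among 5148, were taken by Euclidean distance, as a description with no test. HHT2 lay nearest to RPL2B (distance 0.113), RPS14A (0.249) and EFB1 (0.26). RPL2B and RPS14A encode ribosomal proteins and EFB1 a translation elongation factor subunit. RPL2B had 541 and 537 normalised CPM per kb in poly(A) RNA and 385 and 384 in total RNA. HHO1 lay nearest to NOC2 (0.0947), a factor of ribosome assembly, YML018C (0.105) and DCW1 (0.117). HTZ1 lay nearest to LYS21 (0.126), a homocitrate synthase of lysine synthesis, FSF1 (0.136) and LRP1 (0.243), a cofactor of the nuclear exosome. LYS21 had 20.5 and 21.6 normalised CPM per kb in poly(A) RNA and 22.2 and 27.3 in total RNA.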
